A study of Drosophila melanogaster with 18 samples.

Results

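The comparison described here asks whether the change of the larval transcriptome under NUAK550 differed between dissected muscle and the whole animal. For each gene the change in muscle carcass (NUAK550 over lacZ) was set against the change in whole larvae (NUAK550 over lacZ), and their difference on the log2 scale, muscle minus whole, was tested. The comparison takes 12 of the 18 libraries of the series, chosen by their labels: 3 of NUAK550 muscle carcass, 3 of lacZ muscle carcass, 3 of NUAK550 whole larvae and 3 of lacZ whole larvae. The 6 NUAK548 libraries were left out.

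All of these animals were Drosophila melanogaster larvae of instar 3 that carried the mef2 driver, which acts in muscle. In the NUAK550 groups the driver expressed NUAK (mef2>NUAK 550), and in the lacZ groups it expressed lacZ (mef2>lacZ), a bacterial gene used as a control for the expression of a foreign protein. The labels do not say what the number 550 stands for, give no sex for the larvae, and leave it unsaid whether a group's libraries are separate biological samples, so p-values measure the spread between these libraries, which may be technical. No group separates NUAK from other differences between the NUAK550 and lacZ lines.

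NUAK is a protein kinase related to AMPK, and kinases of this family are activated by LKB1. In Drosophila larvae the body wall muscles are large contractile fibres, and a carcass preparation usually keeps these muscles and the body wall while gut, fat body, salivary glands and gonads are largely removed. RNA from muscle is therefore a large part of the carcass and a smaller part of a whole larva. A gene that changes by the same factor in both preparations has a difference of 0 on the log2 scale. A positive difference means that the NUAK550 effect was higher in muscle than in whole larvae, which includes genes that fell in whole larvae alone, and a negative one means that it was lower.

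Counted reads per library ran from 14931020 to 22341807. Levels are in CPM (counts relative to the library's size, scaled between libraries by the trimmed mean of M values, TMM) and are listed in the order of the replicate numbers. The preparations differed in their marker genes. The 39 sarcomere and myofibril genes summed to between 149000 and 208000 CPM in NUAK550 muscle, against 78000 to 110000 CPM in lacZ muscle. In whole larvae they summed to between 35800 and 41200 CPM for NUAK550, against 7500 to 15700 CPM for lacZ. The 45 digestive genes of the gut summed to between 111 and 212 CPM in NUAK550 muscle and 47.5 to 536 CPM in lacZ muscle. They reached 25300 to 39000 CPM in NUAK550 whole larvae and 9400 to 29400 CPM in lacZ whole larvae. The sarcomere sum was higher in NUAK550 in both preparations. Other muscle lists did not follow it in muscle, where the postsynaptic genes summed to 1470 to 1560 CPM in NUAK550 and 1640 to 1720 CPM in lacZ, and the muscle identity regulators to 1170 to 1550 CPM in NUAK550 and 1550 to 1800 CPM in lacZ. In bulk RNA fewer cells of a type and less RNA per cell cannot be told apart.

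The overexpressed gene was high in both preparations. Nuak (FBgn0262617, 3R 10264306 to 10308467) stood at 5057, 3975 and 5054 CPM in NUAK550 muscle, against 446, 402 and 453 CPM in lacZ muscle. In whole larvae it stood at 2307, 2205 and 2291 CPM for NUAK550, against 55, 92.8 and 81.7 CPM for lacZ. Every NUAK550 library lay above every lacZ library of the same preparation. The change was log2 3.44 in muscle and 4.89 in whole larvae, and the difference was called (log2 −1.45, SE 0.27, adjusted p = 0.0057). The lacZ level was lower in whole larvae, and reads from a transgene and from the gene's own locus are counted together.

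Across the transcriptome, the NUAK550 effect differed between the preparations for 1672 of 12194 genes tested (13.7% called), at an adjusted p below 0.05. For 1123 genes the effect was higher in muscle than in whole larvae (9.21%), and for 549 it was lower (4.5%). A difference of at least 2-fold was seen for 1070 of the higher and 264 of the lower genes. Within one preparation, 1105 genes changed in muscle (9.06%), 554 of them higher and 551 lower. In whole larvae 3462 genes changed (28.4%), 1341 of them higher and 2121 lower. The count in muscle was 592, 530, 518 and 636 without the first or the third NUAK550 muscle or the first or the third lacZ muscle library, and 1749 without the first lacZ whole library. The median difference over all genes tested was log2 −0.04, so a list is best read against that value.

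Most of the differing genes had moved in whole larvae. Of the 1672, 1164 had a called effect in whole larvae alone, 311 in muscle alone, 50 in both with opposite directions and 34 in both with one direction, while 113 had no called effect in either preparation. The genes with a higher effect in muscle were mostly genes that fell in whole larvae: 1007 of the 1123 were called lower there, and 107 were called higher in muscle. Of these 1123 genes, 751 lay below 1 CPM in all 6 muscle libraries, against 2249 (18.4%) of all genes tested. Genes this low in muscle could pass the filter on low counts through whole larvae, so this contrast follows in part from the filter. The genes with a lower effect in muscle were of another kind, since 9 of the 549 lay below 1 CPM in all muscle libraries. Among them 273 were called lower in muscle and 222 were called higher in whole larvae. Across genes the muscle and whole effects correlated at r = 0.20, and at r = 0.37 over the 9945 genes that reached 1 CPM in a muscle library. These values are descriptions, since genes are not independent replicates, and the 2 effects share no library.

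The count of genes with a lower effect in muscle depended on single libraries. It was between 147 and 235 without any 1 of the 6 muscle libraries, and 325 and 341 without the first and the second NUAK550 whole library. The count of genes with a higher effect stayed between 958 and 1181 in all 12 such fits. The median difference over all genes moved to between 0.13 and 0.18 when a muscle library was left out, so small differences near 0 are read against that shift. With TMM computed inside each preparation the split was 1167 higher and 385 lower, and the share of higher genes among the calls was 75.2%, beside 67.2% in the values given above.

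**Figure D1:**
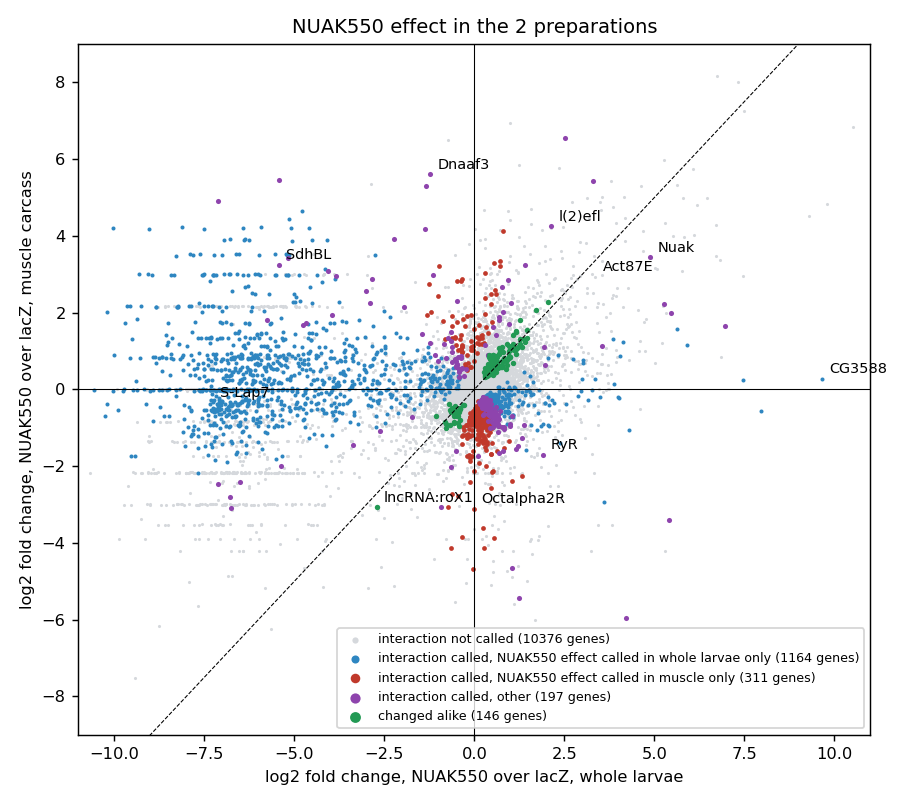
Each point is 1 of 12194 genes. The horizontal axis is the log2 fold change of NUAK550 over lacZ in whole larvae, the vertical axis the same in muscle carcass, colours give the class of the call, and the dashed line marks equal change. The 1164 genes called in whole larvae alone spread to the left along the horizontal axis, and the 146 genes that changed alike lie along the dashed line; rows of points at fixed heights are genes with few counts in muscle.

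Genes of the male germline had a higher effect in muscle than in whole larvae and fell in whole larvae. The list of spermatocyte and testis genes held 47 tested members, of which 37 had a higher effect in muscle, beside 9.21% of all genes. Members low in muscle could pass the filter on low counts through lacZ whole larvae, where the list was high, so this share is a description. The median difference of the list was log2 6.64, against −0.04 over all genes. None of the members was called in muscle by edgeR or by DESeq2 (1 higher and 2 lower at an unadjusted p below 0.05), and there their median effect was log2 −0.02 against 0.00148 over all genes. In whole larvae 46 of the 47 fell (17.4% of all genes), with a median of log2 −6.90 against 0.0989 over all genes. The same filter favours this fall, so that count is a description too. With the 4 members that had no count in NUAK550 whole larvae set at their bound (3 counts over the group), the medians were log2 −6.50 in whole larvae and 6.46 for the difference (this one over the 45 members counted in muscle).

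The summed level of the list shows where these RNAs were found. The members summed to between 81.9 and 100 CPM in NUAK550 muscle and 92.1 to 101 CPM in lacZ muscle, and to between 54.9 and 58.9 CPM in NUAK550 whole larvae, against 1240 to 1630 CPM in lacZ whole larvae. Of the 47, 30 lay below 1 CPM in all 6 muscle libraries. Without the 3 members that were highest in muscle (bol, achi and fzo), the sums were 20 to 21.5 CPM in NUAK550 muscle, 20.3 to 27.4 CPM in lacZ muscle, 20.3 to 23.4 CPM in NUAK550 whole larvae and 1160 to 1550 CPM in lacZ whole larvae. Lacking any count were nht and Prosalpha3T in NUAK550 muscle, and comr, nht, Prosalpha3T and Prosalpha4T1 in NUAK550 whole larvae. In lacZ muscle can, comr, nht, Prosalpha3T and Prosalpha4T1 had no count, and in lacZ whole larvae every member was counted.

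S-Lap7 (FBgn0033868, 2R 13778124 to 13780245), a sperm leucyl aminopeptidase, stood at 0.863, 1.21 and 0.869 CPM in NUAK550 muscle, against 1.5, 1.17 and 1.09 CPM in lacZ muscle. Its levels in whole larvae were 0.607, 0.647 and 1.04 CPM for NUAK550, against 150.3, 105 and 111 CPM for lacZ. The lacZ whole larvae alone were high, and the muscle groups overlapped (log2 6.94, SE 0.37, adjusted p = 4.2e-06 for the difference). Sperm mitochondria carry loopin-1, a protein of the same family, whose levels were 0.785, 1.15 and 1.03 CPM in NUAK550 muscle, against 2.02, 0.62 and 1.46 CPM in lacZ muscle. Whole larvae held loopin-1 at 1.21, 0.846 and 0.695 CPM for NUAK550, against 139.5, 118 and 124 CPM for lacZ, which again left the lacZ whole larvae alone high (log2 6.69, SE 0.49, adjusted p = 2.5e-05). Mst77F encodes a protein that packs sperm chromatin in place of histones, and its difference was log2 7.19 (adjusted p = 2.4e-05). For Mst98Ca, a sperm tail protein, it was log2 7.25 (adjusted p = 2.4e-05), and for fzo, the mitofusin of spermatids, log2 4.95 (adjusted p = 3.7e-05). The cell cycle phosphatase twe, which acts in meiosis, differed by log2 2.31 (adjusted p = 0.001), and the meiotic regulator bol by log2 0.86 (adjusted p = 0.018). bol was not high in lacZ whole larvae alone, with means of 61.3 CPM in NUAK550 muscle and 64.7 CPM in lacZ muscle, against 27.1 CPM in NUAK550 whole larvae and 52 CPM in lacZ whole larvae. Members of the S-Lap and Mst84D families are close in sequence, so the division of reads among them is uncertain.

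Several genes with the smallest p of the whole comparison also lay low in muscle and were high in lacZ whole larvae alone. CG4836 (FBgn0038762, 3R 20013872 to 20018248) had the smallest, with 2.04, 2.54 and 1.98 CPM in NUAK550 muscle, against 2.92, 1.86 and 2.04 CPM in lacZ muscle, and 1.27, 1.89 and 1.78 CPM in NUAK550 whole larvae, against 191, 198 and 220.4 CPM in lacZ whole larvae. Its muscle groups overlapped and its whole larvae groups did not (log2 6.88, SE 0.29, adjusted p = 1.1e-06 for the difference). CG31538 (log2 5.39, adjusted p = 3.2e-06), CG12861 (log2 6.62, adjusted p = 1.9e-05), CG9920 (log2 7.17, adjusted p = 2.0e-05) and CG3982 (log2 5.49, adjusted p = 2.0e-05) had the same layout. The largest positive differences among genes with a mean of at least 5 CPM ran up to log2 9.33 for lncRNA:CR32658. Among the next in size were CG18266, Mst33A, CG5043, CG32548, CG34434, CG33340, CG15128, CG8565, CG8564 and CG3213. These genes lay at 1.02 CPM or less in every muscle library (CG33340 had the highest value), so their fitted sizes depend on how the fit treats low counts and are not given here as folds. The calls of lncRNA:CR32658, CG18266 and CG15128 were each lost without 1 NUAK550 muscle library, namely the first, the second and the third in that order.

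Calls of testis genes were lost when the 6 NUAK548 libraries were added to the fit. With all 18 libraries, 226 genes were called in all and 0 of the testis genes with a higher effect by edgeR (34 at an unadjusted p below 0.05), beside 37 with 12 libraries by edgeR and 44 by DESeq2. Over all genes, DESeq2 called 1870 of 12194 higher with 12 libraries. The count of testis genes was 33 to 38 when each of the 12 libraries was left out. Among the named genes of this kind, S-Lap7, loopin-1, Mst77F, Mst98Ca and CG4836 lost their call with 18 libraries and kept it in the other fits.

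**Figure D2:**
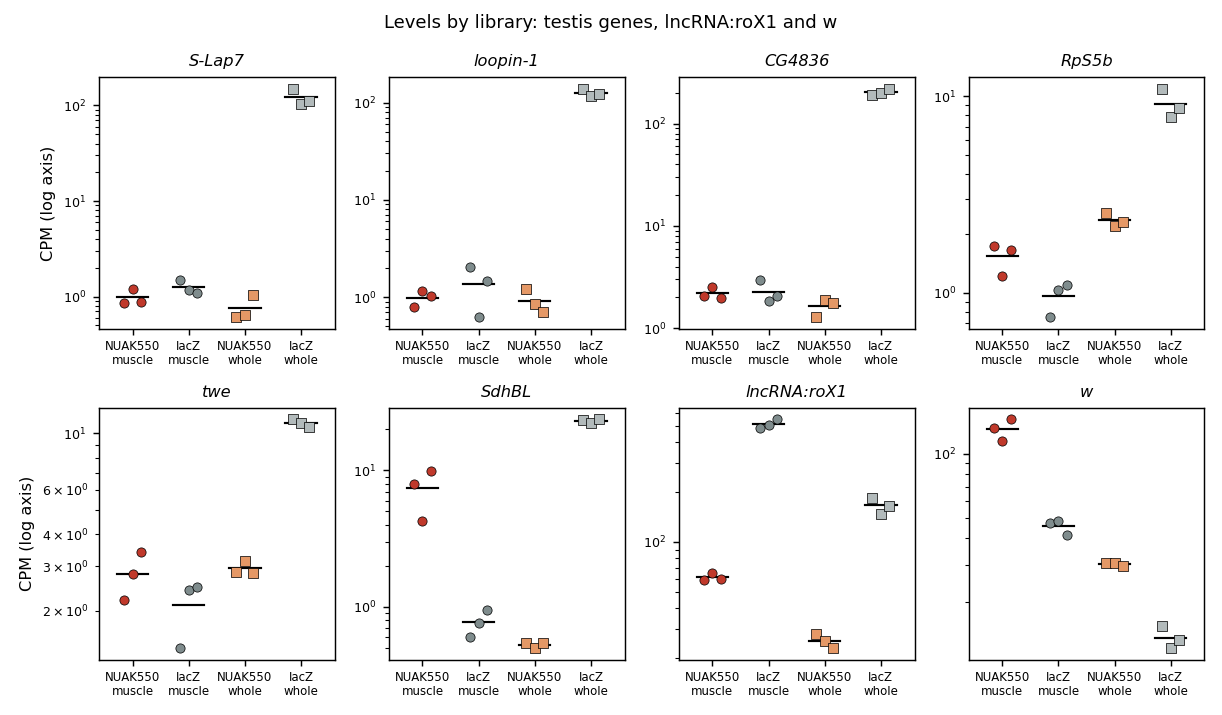
CPM per library on a log axis for 8 genes, with NUAK550 left of lacZ and muscle left of whole larvae; points are libraries and lines are means of 3. S-Lap7, loopin-1, CG4836, RpS5b and twe are high in lacZ whole larvae alone, SdhBL is high in NUAK550 muscle and in lacZ whole larvae, lncRNA:roX1 is low in both NUAK550 groups, and w is high in both.

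Genes of the Y chromosome were near their limit of detection in muscle. Of 11 Y-linked genes, 6 could be tested, and 2 had a higher effect in muscle (WDY and CCY), beside 9.21% of all genes. In whole larvae 6 of 6 were lower, beside 17.4% of all genes. In muscle 0 were called by edgeR or DESeq2 (0 at an unadjusted p below 0.05 too). The 6 passed the filter on low counts only through lacZ whole larvae, so their fall in whole larvae was fixed in advance and is no support. The same filter favours a positive difference, so the 2 calls are no support either. The summed level of the 11 genes was 0.0785 to 0.182 CPM in NUAK550 muscle and 0 to 0.300 CPM in lacZ muscle. In whole larvae it was 0 to 0.182 CPM for NUAK550, against 9.97 to 12.5 CPM for lacZ. In NUAK550 whole larvae CCY and WDY had no counts, which puts lacZ whole larvae at least 46.9-fold higher for CCY and at least 15.7-fold higher for WDY, taking 3 counts over all libraries of the group as the floor. With the 3 members that had no count in NUAK550 whole larvae at such a bound, the list medians were log2 −5.21 in whole larvae and 5.17 for the difference. The call of WDY was lost without any of 10 of the 12 libraries and that of CCY without the second NUAK550 muscle or the third lacZ whole library.

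Dosage compensation RNAs moved in both preparations, unlike the testis genes. In males the noncoding RNAs roX1 and roX2 guide a protein complex with msl-2 to the X chromosome. lncRNA:roX1 (FBgn0019661, X 3857230 to 3862697) stood at 58.8, 65.1 and 60.1 CPM in NUAK550 muscle, against 484, 508 and 546 CPM in lacZ muscle. Whole larvae gave 27.7, 25.2 and 22.9 CPM for NUAK550, against 185, 148 and 164 CPM for lacZ. No NUAK550 library reached a lacZ library in either preparation. The fall was log2 −3.06, SE 0.13, adjusted p = 1.4e-06 in muscle and log2 −2.71, SE 0.13, adjusted p = 2.0e-07 in whole larvae, and the difference of −0.35 had a 95% interval of −0.73 to 0.03. msl-2 fell in both, with log2 changes of −0.60 in muscle and −0.61 in whole larvae, with a difference of log2 0.01 (adjusted p = 1). Across this list of 16 genes of dosage compensation and sex determination, 3 fell in muscle (4.52% of all genes). In whole larvae 3 fell, near the 17.4% of all genes, and 1 rose (11% of all genes). The difference was called for Sxl alone (4.5% of all genes were called lower), the switch gene of female development (log2 −0.70, SE 0.21, adjusted p = 0.046). That call was lost without any of 9 libraries.

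lncRNA:roX2 (FBgn0019660, X 11579065 to 11580432) was close to absent under NUAK550. It stood at 0, 0.0605 and 0.079 CPM in NUAK550 muscle, against 9.45, 11.4 and 9.1 CPM in lacZ muscle. It had no counts in NUAK550 whole larvae, against 6.42, 3.88 and 3.81 CPM in lacZ whole larvae, which was at least 97.9-fold higher. In whole larvae both testis RNA and roX RNA fell, and in muscle roX RNA fell while no member of the testis list was called by edgeR. A different make-up of the groups by sex and an effect of NUAK550 cannot be told apart, since the labels give no sex.

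Several paralogues of housekeeping genes, some of them known for expression in the testis, had a higher effect in muscle. Among 86 genes of oxidative phosphorylation, 8 had a higher and 1 a lower effect in muscle, with a list median of −0.24, and the higher count is near the 9.21% of all genes called higher. COX4L (log2 7.06, adjusted p = 2.5e-05), ND-20L (log2 6.28, adjusted p = 6.3e-04), ND-51L1 and ATPsynbetaL, each a copy of a subunit of a respiratory complex, were among the 8. Among 89 cytosolic ribosomal proteins, 5 had a higher effect, a share below the 9.21% of all genes, with a median of 0.25. The 5 were RpL22-like, RpS5b, RpL10Aa, RpS19b and RpS10a, all of them second copies of a ribosomal protein gene. The call of RpL22-like was lost without the second or the third NUAK550 muscle library. RpS5b stood at 1.73, 1.21 and 1.66 CPM in NUAK550 muscle, against 0.75, 1.03 and 1.09 CPM in lacZ muscle, and 2.55, 2.19 and 2.28 CPM in NUAK550 whole larvae, against 10.9, 7.8 and 8.75 CPM in lacZ whole larvae. Its level was low in muscle, and the lacZ whole larvae stood apart (log2 2.63, SE 0.33, adjusted p = 5.6e-04). TrxT, a thioredoxin of the testis, had the same layout (log2 6.36, adjusted p = 1.6e-04). Of 14 germline genes, 3 had a higher effect in muscle (9.21% of all genes), namely bgcn (log2 3.92), krimp (log2 2.30) and AGO3 (log2 1.67), and tud had a lower one (log2 −1.39), which was lost without any of 6 libraries.

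Some genes rose in muscle and fell in whole larvae. In all, 50 genes were called in opposite directions (0.41% of genes tested), 20 of them higher in muscle and lower in whole larvae. SdhBL (FBgn0030975, X 18894446 to 18896581), a copy of the iron-sulphur subunit of succinate dehydrogenase, stood at 8.0, 4.24 and 9.88 CPM in NUAK550 muscle, against 0.60, 0.758 and 0.946 CPM in lacZ muscle. The whole-larva values were 0.546, 0.498 and 0.541 CPM for NUAK550, against 23.5, 22.2 and 23.6 CPM for lacZ. NUAK550 was above lacZ in every muscle library and below it in every whole library, and the difference was among the 8 with the smallest p (log2 8.67, SE 0.44, adjusted p = 3.2e-06). Dnaaf3, which takes part in assembling the dynein arms of axonemes, stood at 8.55, 10.3 and 13.8 CPM in NUAK550 muscle, against 0.30, 0.207 and 0.146 CPM in lacZ muscle. Whole larvae held Dnaaf3 at 3.76, 3.04 and 2.28 CPM for NUAK550, against 7.51, 6.74 and 6.83 CPM for lacZ (log2 6.83, SE 0.42, adjusted p = 1.2e-05 for the difference). CG30334 rose to 21.3, 19.1 and 14.5 CPM in NUAK550 muscle, against 0.375, 0.689 and 0.291 CPM in lacZ muscle, and fell to 1.46, 1.19 and 0.541 CPM in NUAK550 whole larvae, against 4.04, 2.08 and 1.85 CPM in lacZ whole larvae. ATPsynbetaL, Cep290, a protein of the ciliary transition zone, and CG4907 had lower levels and the same signs. At higher levels the opposite changes were smaller, as for neb, a kinesin gene (log2 0.58 in muscle and −0.52 in whole larvae), and POLDIP2 (log2 0.52 and −0.37). The count of opposite calls was 15 to 30 without the first or the third NUAK550 muscle library, any lacZ muscle library or any NUAK550 whole library, and 77 without the first lacZ whole library.

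Of the chaperones, 1 rose further in muscle than in whole larvae. l(2)efl (FBgn0011296, 2R 23684651 to 23685543), a small heat shock protein of the alpha-crystallin family, stood at 9679, 10552 and 10634 CPM in NUAK550 muscle, against 475, 595 and 548 CPM in lacZ muscle. In whole larvae it stood at 2032, 1982 and 1798 CPM for NUAK550, against 508, 492 and 325 CPM for lacZ. It rose in both preparations, by log2 4.25 in muscle and 2.13 in whole larvae, and the effect was higher in muscle (log2 2.12, SE 0.27, adjusted p = 5.9e-04). It was the 1 member of 26 chaperone and BAG-family genes whose difference was called by edgeR (13.7% of all genes were). DESeq2 called 3 higher and 1 lower, beside 1870 higher and 752 lower of all 12194 genes. With 1 library left out, edgeR called 1 to 3 higher. Hsp68, an inducible member of the Hsp70 family, stood at 260.1, 329 and 336 CPM in NUAK550 muscle, against 113, 38.1 and 50.2 CPM in lacZ muscle, and the groups did not overlap there. Its levels in whole larvae were 77, 236 and 229 CPM for NUAK550, against 113, 86.2 and 105 CPM for lacZ, and the groups overlapped. The rise was called in muscle (log2 2.20, adjusted p = 0.015) and not in whole larvae (log2 0.83, adjusted p = 0.19), and the difference itself was not called (log2 1.37, 95% interval −0.00325 to 2.74, adjusted p = 0.18). Thor, the repressor of translation 4E-BP, was likewise called in muscle (log2 1.72) and not in whole larvae (log2 0.65), with a difference of log2 1.07 (95% interval 0.13 to 2.0, adjusted p = 0.13).

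Other genes rose in muscle and not detectably in whole larvae, and the difference passed the test. Atg16, needed to form autophagosomes, stood at 83.9, 64 and 79.8 CPM in NUAK550 muscle, against 31.6, 33.8 and 34.9 CPM in lacZ muscle. Whole larvae gave 37, 30.7 and 28.5 CPM for NUAK550, against 26.9, 30.6 and 25.2 CPM for lacZ, and these groups overlapped (log2 0.96, SE 0.20, adjusted p = 0.0081). Of 33 autophagy and lysosome genes Atg16 was the 1 called higher in muscle by edgeR (4.54% of all genes), while 4 were called lower (4.52%). DESeq2 called 2 of the 33 higher and 11 lower in muscle. It called more genes there in all, 1905 of 12194 in either direction against 1105 by edgeR. mRpL11, of the mitochondrial ribosome, reached 14.9, 16.4 and 14 CPM in NUAK550 muscle, against 6.15, 6.27 and 5.24 CPM in lacZ muscle, with a difference of log2 1.28 (adjusted p = 0.0034). It was the 1 called member of 72 mitochondrial ribosomal proteins, a share below that of all genes. Genes of this kind chosen for the highest differences after their values were seen included CG14022 (log2 3.34, SE 0.61, adjusted p = 0.0047), CG13685 (log2 2.73, SE 0.43, adjusted p = 0.0021), CG14598 (log2 3.20) and Agpat2, an enzyme of phospholipid synthesis (log2 2.23). CG10713 (log2 4.01) and exex (log2 3.24) were chosen too, but their calls were lost without any of 3 libraries and without 1 library. phr, a DNA photolyase, and CG9328 rose in both and more in muscle, with differences of log2 0.87 and 1.10.

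Genes lower in muscle and not in whole larvae formed the larger part of the muscle-only class, with 240 of 311. That count depended on single libraries, since all genes with a lower effect numbered 147 to 235 when a muscle library was left out. Octalpha2R (FBgn0038653, 3R 18799280 to 18849224), a receptor for octopamine, stood at 3.77, 3.81 and 4.98 CPM in NUAK550 muscle, against 45.7, 29.4 and 33.5 CPM in lacZ muscle. The whole-larva values were 6.5, 7.22 and 9.23 CPM for NUAK550, against 6.74, 8.08 and 8.32 CPM for lacZ, with overlapping groups (log2 −3.10, SE 0.29, adjusted p = 8.7e-05). AstA-R2, a receptor for the neuropeptide allatostatin A, stood at 10.4, 21.9 and 13.6 CPM in NUAK550 muscle, against 139, 90.5 and 87.9 CPM in lacZ muscle, and its whole larvae values were 11, 11.3 and 11.8 CPM in NUAK550 whole larvae, against 18, 15.2 and 13.7 CPM in lacZ whole larvae. The muscle fall was log2 −2.79, the change in whole larvae log2 −0.46, and the difference was called (log2 −2.32, SE 0.37, adjusted p = 0.0021). Dscam4, a cell adhesion protein of the immunoglobulin superfamily, stood at 4.71, 0.545 and 0.632 CPM in NUAK550 muscle, against 22.9, 24.5 and 23 CPM in lacZ muscle (log2 −3.84, SE 0.80, adjusted p = 0.0092), with whole larvae at 16.5, 20.1 and 21.6 CPM for NUAK550 and 10.9, 17.2 and 21.4 CPM for lacZ. CG43740 stood at 0.941, 4.54 and 2.77 CPM in NUAK550 muscle, against 68.5, 41.4 and 37.3 CPM in lacZ muscle (log2 −3.47, SE 0.71, adjusted p = 0.0083). Its levels were 1.27, 1.29 and 1.04 CPM in NUAK550 whole larvae, against 3.07, 1.29 and 1.3 CPM in lacZ whole larvae. pst (log2 −2.14), CG7582 (log2 −2.64) and CG30116 (log2 −2.37) fell in muscle alone as well. Those 3, Octalpha2R and AstA-R2 were chosen after their values were seen. For Snap29, a SNARE protein that acts when autophagosomes fuse with lysosomes, the fall was called in muscle (log2 −1.0, adjusted p = 0.0029) and not in whole larvae (log2 −0.40, adjusted p = 0.065), and the difference was not called (log2 −0.59, adjusted p = 0.09).

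Single immune and cell death genes had a lower effect in muscle. Listericin, an antibacterial protein gene, stood at 17, 17.7 and 25.4 CPM in NUAK550 muscle, against 358, 187 and 316 CPM in lacZ muscle. In whole larvae it stood at 56.3, 44.6 and 28.7 CPM for NUAK550, against 110, 33 and 21.7 CPM for lacZ, where the groups overlapped (log2 −3.49, SE 0.75, adjusted p = 0.011). Of 17 antimicrobial peptides 1 had a lower effect in muscle by edgeR, near the 4.5% of all genes, with a list median of −2.89. DESeq2 called 5 lower and 1 higher, beside 752 lower and 1870 higher of all 12194 genes. In muscle 3 of the 17 fell (4.52% of all genes). AttA, the called member, stood at 0.549, 0.121 and 0.632 CPM in NUAK550 muscle, against 2.92, 3.03 and 12.8 CPM in lacZ muscle, with a difference of log2 −4.42 (adjusted p = 0.025) that was lost without any of 5 libraries. The summed level of the peptides was 29.5 to 206 CPM in NUAK550 muscle and 200 to 526 CPM in lacZ muscle, against 38.8 to 230 CPM in NUAK550 whole larvae and 114 to 252 CPM in lacZ whole larvae. The pro-apoptotic gene rpr stood at 1.88, 2.36 and 2.69 CPM in NUAK550 muscle, against 23.3, 19 and 16.1 CPM in lacZ muscle, and 2.25, 2.64 and 3.13 CPM in NUAK550 whole larvae, against 5.69, 3.05 and 6.67 CPM in lacZ whole larvae. It fell in both preparations, with log2 changes of −3.07 in muscle and −0.94 in whole larvae, and further in muscle (log2 −2.13, SE 0.40, adjusted p = 0.0057). Among 20 JNK and cell death genes, 2 had a lower effect, rpr and kay (4.5% of all genes). The Fos transcription factor gene kay differed by log2 −1.23 (adjusted p = 0.0079). Its call was lost without the second NUAK550 muscle library or the second or the third lacZ muscle library.

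Genes that fell in muscle and rose in whole larvae included core components of muscle function. There were 30 genes of this kind. RyR (FBgn0011286, 2R 8860364 to 8888097), the channel that releases calcium from the sarcoplasmic reticulum, stood at 153, 61.1 and 115.5 CPM in NUAK550 muscle, against 298, 424 and 352 CPM in lacZ muscle. Its levels in whole larvae were 35, 26.9 and 65.2 CPM for NUAK550, against 9.17, 18.8 and 5.69 CPM for lacZ. NUAK550 was lower in every muscle library and higher in every whole library, and the difference was log2 −3.62, SE 0.67, adjusted p = 0.005. The fall in muscle passed narrowly (adjusted p = 0.047). flr (FBgn0260049, 3L 13412843 to 13416453), which promotes actin disassembly with cofilin, stood at 492, 411 and 446 CPM in NUAK550 muscle, against 780.2, 871 and 812 CPM in lacZ muscle. Whole larvae gave 189, 195 and 229 CPM for NUAK550, against 162, 139 and 126 CPM for lacZ. The groups did not overlap in either preparation (log2 −1.39, SE 0.19, adjusted p = 9.7e-04).

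Synaptic, hormonal and signalling genes followed. GluRIID (FBgn0028422, 3R 20648595 to 20652450), an essential subunit of the muscle glutamate receptor, stood at 79.6, 76.2 and 73.8 CPM in NUAK550 muscle, against 107, 128 and 130.1 CPM in lacZ muscle, and 18, 16.9 and 19.2 CPM in NUAK550 whole larvae, against 11.6, 13.6 and 10.4 CPM in lacZ whole larvae. The fall in muscle was log2 −0.67, the rise in whole larvae log2 0.60, and the difference log2 −1.27, SE 0.18, adjusted p = 9.2e-04. EcR, the ecdysone receptor, stood at 255, 304 and 272 CPM in NUAK550 muscle, against 513, 340.4 and 505 CPM in lacZ muscle, and 266, 301 and 270.1 CPM in NUAK550 whole larvae, against 156, 198 and 192 CPM in lacZ whole larvae (log2 −1.33, adjusted p = 0.0046). The EcR groups overlapped in neither preparation. Pdk, the kinase that inhibits pyruvate dehydrogenase, differed by log2 −2.34 (adjusted p = 0.001), and htl, an FGF receptor of mesoderm, by log2 −1.14 (adjusted p = 9.8e-04). PRL-1, a phosphatase, differed by log2 −1.07 and rdgC, a calcium-regulated phosphatase, by log2 −1.30. CG31323 had the smallest p of these genes (log2 −1.81, SE 0.15, adjusted p = 3.7e-05), but 33.6% of its exon length overlaps another gene. CG15546 differed by log2 −2.32 (adjusted p = 1.6e-04).

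**Figure D3:**
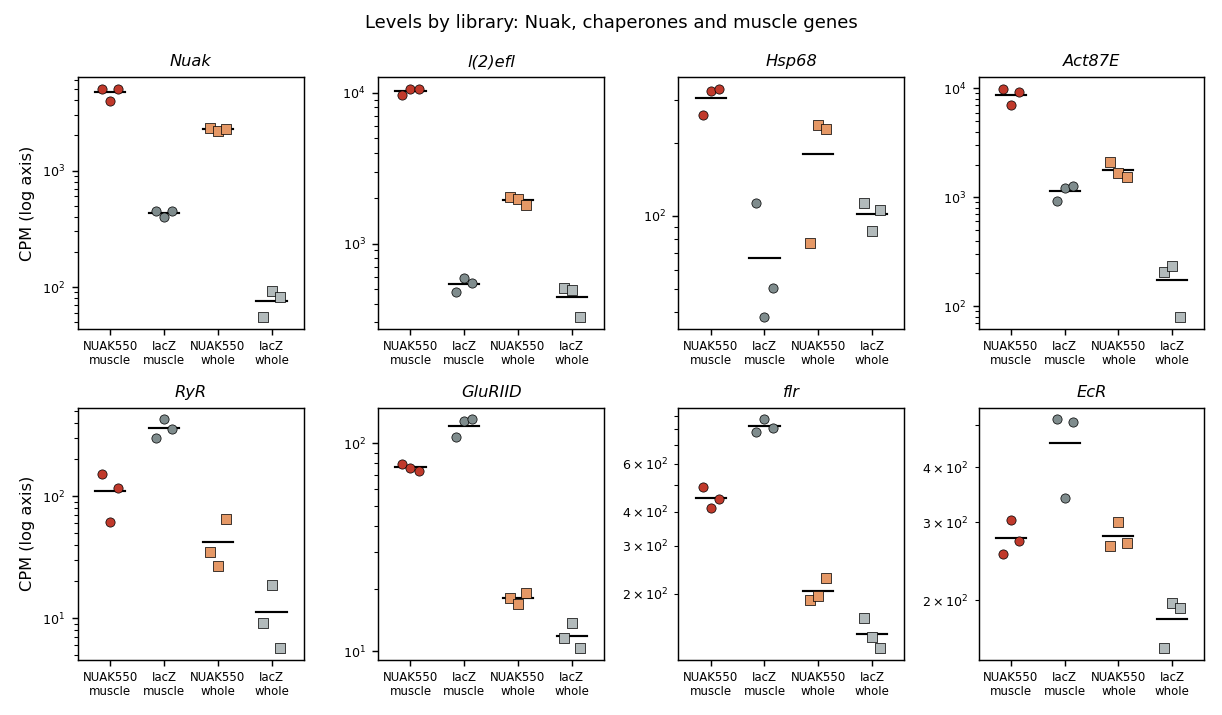
CPM per library on a log axis for 8 genes, with NUAK550 left of lacZ and muscle left of whole larvae; points are libraries and lines are means of 3. Nuak, l(2)efl and Act87E are high in both NUAK550 groups, and RyR, GluRIID, flr and EcR are lower in NUAK550 muscle and higher in NUAK550 whole larvae than in the matching lacZ group.

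Contractile genes rose in whole larvae, and some rose in muscle. Of 35 tested sarcomere and myofibril genes, 26 rose in whole larvae (11% of all genes rose there) and 7 rose in muscle (4.54% of all genes), while 3 fell in muscle (4.52%). Their median was log2 0.68 in muscle and 1.46 in whole larvae, and the median difference −0.86. The difference itself was called for 4 members, all with a lower effect in muscle: flr, Strn-Mlck, TpnC47D and tmod. Leaving out a library gave 2 to 11 such members, and 4 to 14 that rose in muscle. For Mhc, the muscle myosin heavy chain, the difference was log2 −2.15 and its interval was wide (95% interval −4.30 to −0.01, adjusted p = 0.18). Strn-Mlck, a myosin light chain kinase, stood at 273, 157 and 260 CPM in NUAK550 muscle, against 363, 479.6 and 439 CPM in lacZ muscle, with whole larvae at 115.4, 109 and 135 CPM for NUAK550 and 69.8, 93.7 and 77.6 CPM for lacZ (log2 −1.47, SE 0.30, adjusted p = 0.0081). TpnC47D, a troponin C, and tmod, which caps actin filaments, had adjusted p = 0.049 and 0.026, and their calls were lost without any of 10 and 8 libraries.

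Act87E, an actin of larval muscle, stood at 9977, 7052 and 9304 CPM in NUAK550 muscle, against 932, 1227 and 1276 CPM in lacZ muscle. The whole-larva values were 2089.7, 1673 and 1542 CPM for NUAK550, against 204, 234 and 78.9 CPM for lacZ. It rose in both (log2 2.94 and 3.36), and the difference of −0.42 had a 95% interval of −1.48 to 0.64, too wide to call the changes alike. Mp20, a muscle actin-binding protein, likewise rose in both (log2 1.97 in muscle and 2.66 in whole larvae), with a difference of −0.68 (95% interval −1.73 to 0.37). Actin genes are close in sequence, so their counts can share reads. The summed sarcomere level moved with these results, as given above, and its part in them was not tested.

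Genes of the neuromuscular junction and of calcium handling had called differences too. Of 20 postsynaptic genes, 5 had a lower effect in muscle (4.5% of all genes), with a median of −0.52. In muscle 4 fell (4.52% of all genes), and in whole larvae 6 rose (11%). Leaving out 1 library gave 3 to 6 with a lower effect and 4 to 9 that rose in whole larvae. GluRIIA stood at 83.6, 97.2 and 87.1 CPM in NUAK550 muscle, against 119, 122 and 125 CPM in lacZ muscle, and 20.6, 20.6 and 30 CPM in NUAK550 whole larvae, against 14.3, 12.5 and 10.6 CPM in lacZ whole larvae (log2 −1.38, SE 0.23, adjusted p = 0.0027). Its change was called in whole larvae (log2 0.93, adjusted p = 0.0011) and not in muscle (log2 −0.45, adjusted p = 0.11). GluRIIB, which takes the place of GluRIIA in another receptor type, differed by log2 −1.38 (adjusted p = 0.0084). GluRIIE (log2 −1.09) and Dys, the dystrophin gene (log2 −1.16), had adjusted p = 0.048 and 0.0499, and the GluRIIE call was lost without any of 10 libraries. Of 21 calcium handling and excitability genes, RyR and Calx, a sodium-calcium exchanger, had a lower effect (4.5% of all genes). Calx passed at adjusted p = 0.049 and was lost without any of 10 libraries. In muscle 5 of the 21 rose (4.54% of all genes) and 2 fell (4.52%), while in whole larvae 10 rose (11%) and 0 fell. Among the 5 were the calcium channel subunit genes Ca-alpha1T (log2 1.56) and Ca-beta (log2 1.32), which rose in whole larvae too, by log2 1.13 and 1.14. Ndg, the basement membrane protein nidogen, was the 1 called member of 27 basement membrane and integrin genes, a share below the 13.7% of all genes. It stood at 168, 88.5 and 111 CPM in NUAK550 muscle, against 805, 721 and 896 CPM in lacZ muscle, with whole larvae at 23.4, 23.9 and 53 CPM for NUAK550 and 70.9, 62.9 and 21 CPM for lacZ. The difference was at the threshold (log2 −2.10, SE 0.63, adjusted p = 0.0499), and leaving out any of 11 libraries ended the call.

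Sugar metabolism and kinase genes had called differences as well. Of 21 genes of glycolysis and trehalose metabolism, 3 had a lower effect in muscle (4.5% of all genes), with a median of −0.75, and leaving out 1 library gave 1 to 4. Hex-A (FBgn0001186, X 9585675 to 9589813), the hexokinase that starts glycolysis, stood at 106, 106 and 117 CPM in NUAK550 muscle, against 313, 235 and 284 CPM in lacZ muscle. In whole larvae it stood at 135, 124 and 139.7 CPM for NUAK550, against 127, 147 and 81.5 CPM for lacZ, with overlapping groups (log2 −1.51, SE 0.27, adjusted p = 0.0045). Glys, glycogen synthase, differed by log2 −1.58 (adjusted p = 0.017). Its change was called in whole larvae (log2 0.98) and not in muscle (log2 −0.60, adjusted p = 0.19). Treh, which splits trehalose, differed by log2 −0.88 (adjusted p = 0.035), and the Treh call was lost without any of 9 libraries. That of Glys was lost without the second or the third NUAK550 muscle library or the second lacZ muscle library. Of 12 kinases and partners of the NUAK, LKB1 and AMPK family, Nuak, which is the overexpressed gene itself, SNF4Agamma and Mbs had a lower effect (4.5% of all genes). SNF4Agamma, the gamma subunit of AMPK, differed by log2 −0.61, and Mbs, the myosin phosphatase subunit that NUAK kinases are known to bind in mammals, by log2 −0.92, both lost without any of 9 libraries.

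**Figure D4:**
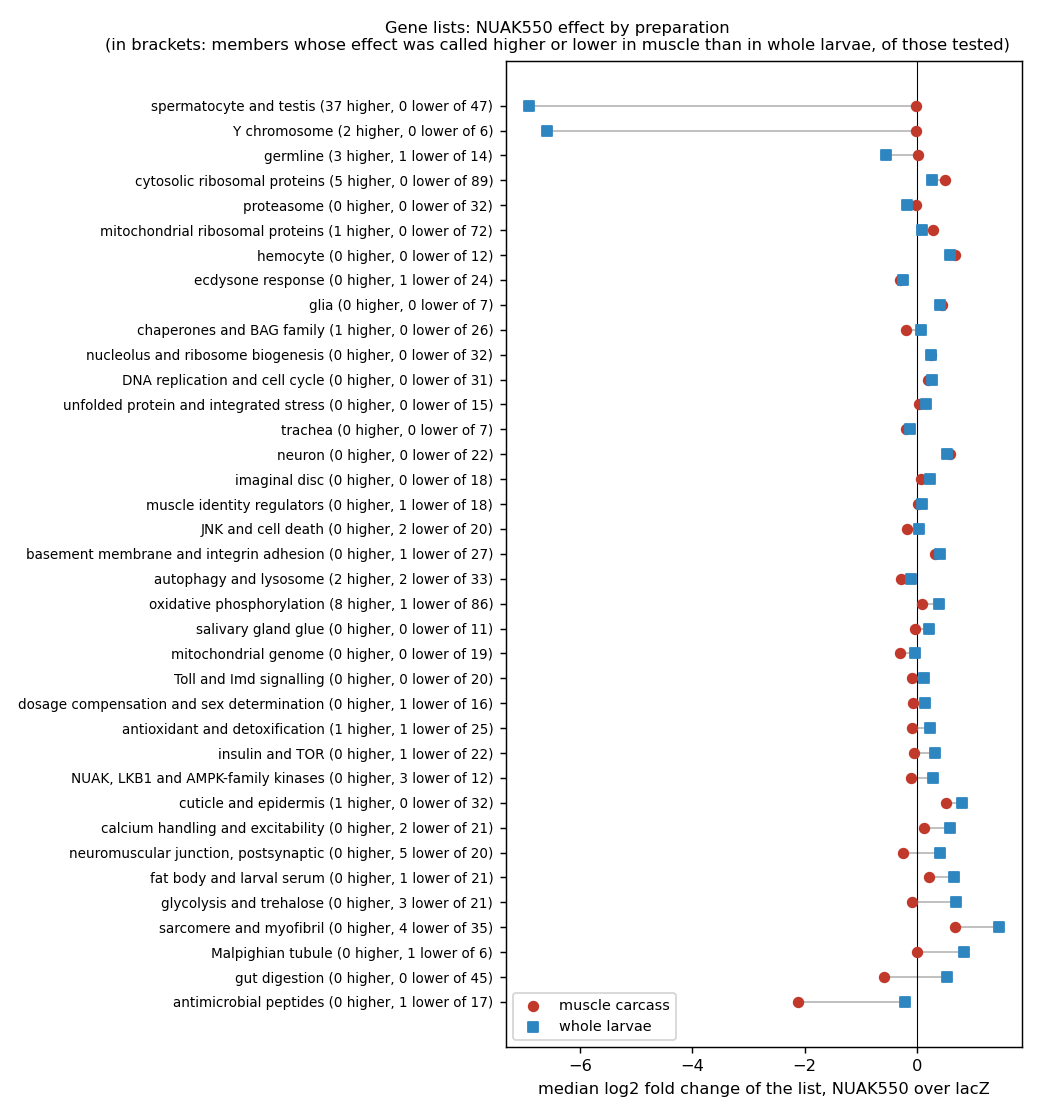
Each row is a list of at least 6 tested genes, with the median log2 fold change of NUAK550 over lacZ in muscle (circles) and in whole larvae (squares); the labels give how many members had a called higher or lower effect in muscle than in whole larvae. The widest gaps are those of the testis (medians −0.02 and −6.90) and Y-linked lists (−0.01 and −6.59), and the sarcomere list has 0.68 in muscle and 1.46 in whole larvae.

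Another group was higher in NUAK550 than in lacZ whole larvae, with no called change in muscle. For CG3588, Hsp70Bb and Cyp6a17 the lacZ whole larvae alone were low. Mean levels there were 0.227, 3.54 and 1.34 CPM in that order, against 379, 104 and 18.8 CPM in lacZ muscle. The cause of this gap between the lacZ groups was not tested. CG3588 (FBgn0025643, X 2919770 to 2924426) stood at 641, 249 and 493 CPM in NUAK550 muscle, against 379, 411 and 348 CPM in lacZ muscle. Its levels in whole larvae were 224, 190 and 162 CPM for NUAK550, against 0, 0.0923 and 0.589 CPM for lacZ. The muscle groups overlapped, while lacZ whole larvae had next to none (log2 −9.36, SE 0.88, adjusted p = 8.9e-05). Hsp70Bb, an Hsp70 gene outside the chaperone list, stood at 107, 69.2 and 93.4 CPM in NUAK550 muscle, against 96.3, 98 and 117 CPM in lacZ muscle, and 54.6, 64.4 and 49.9 CPM in NUAK550 whole larvae, against 7.39, 0.923 and 2.32 CPM in lacZ whole larvae (log2 −4.19, SE 0.72, adjusted p = 0.0034). The Hsp70 copies are nearly identical, so its reads cannot be assigned with certainty. Cyp6a17, a cytochrome P450, stood at 24.2, 16.6 and 21.7 CPM in NUAK550 muscle, against 17.6, 16.5 and 22.2 CPM in lacZ muscle, and 20.3, 20.6 and 18.6 CPM in NUAK550 whole larvae, against 3.43, 0.508 and 0.0785 CPM in lacZ whole larvae (log2 −3.72, SE 0.96, adjusted p = 0.026, lost without any of 6 libraries). Its level in NUAK550 whole larvae lay within the range of the muscle libraries. CG33267 and CG10073 were low in all muscle libraries and in lacZ whole larvae, with 70.8, 5.92 and 272 CPM in NUAK550 whole larvae for CG33267 and 17.1, 145 and 83.9 CPM for CG10073. Their calls were lost without the first lacZ muscle library. mthl8, a gene of the methuselah-like receptor family, rose in both preparations. It had 7.71, 13.8 and 8.5 CPM in NUAK550 whole larvae, at least 239.6-fold above lacZ whole larvae, which had no counts. In muscle it had 7.85, 14.9 and 12.4 CPM in NUAK550 muscle, against 0.30, 0 and 0 CPM in lacZ muscle, and the difference was not called (adjusted p = 0.23). CARPB, a carbonic anhydrase-related gene, and CG6867 rose in both preparations and less in muscle, with differences of log2 −2.40 and −1.32.

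A smaller set of genes changed alike. A gene was placed there when it was called in both preparations in one direction, its difference was not called, and the 95% interval of the difference lay within −1 to 1 on the log2 scale. This held for 146 genes (1.2% of genes tested), 118 of them higher (0.968%) and 28 lower (0.23%). In all, 399 genes were called in both preparations, 349 in one direction, which is 31.6% of the muscle calls and 10.1% of the whole larvae calls. The count depended on the libraries: it was 40 to 80 without the first or the third NUAK550 muscle library, any lacZ muscle library or any NUAK550 whole library, and 313 without the first lacZ whole library, and 58 genes were shared between the 12-library and the 18-library fits.

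An eye colour gene that many transgenes carry as a marker, w (FBgn0003996, X 2790599 to 2796466), stood at 132, 115.3 and 145 CPM in NUAK550 muscle, against 47.4, 48.3 and 41.4 CPM in lacZ muscle. Whole larvae gave 30.5, 30.8 and 29.6 CPM for NUAK550, against 15.5, 12.2 and 13.3 CPM for lacZ. The groups did not overlap in either preparation, the rise was log2 1.51 in muscle and 1.15 in whole larvae, and the difference of 0.36 had a 95% interval of −0.02 to 0.75. GILT3, of the family of lysosomal thiol reductases, stood at 51.3, 81 and 71.1 CPM in NUAK550 muscle, against 15.6, 13.2 and 13.1 CPM in lacZ muscle, and 13.4, 19.1 and 16.3 CPM in NUAK550 whole larvae, against 5.17, 3.14 and 3.49 CPM in lacZ whole larvae. It rose by log2 2.28 in muscle and 2.04 in whole larvae. NimC1, a phagocytosis receptor of hemocytes, rose by log2 2.07 and 1.71. Of 12 hemocyte genes 1 changed alike (1.2% of all genes), 4 rose in muscle (4.54%) and 1 rose in whole larvae (11%). CG3630 stood at 215, 209 and 247 CPM in NUAK550 muscle, against 73, 53.7 and 64.2 CPM in lacZ muscle, and rose by log2 1.81 in muscle and 1.26 in whole larvae. Tm1, a tropomyosin, rose by log2 1.32 and 1.38, with calls that were lost without the first or the third lacZ muscle library. CG12177, SmydA-8 and CG34141 completed the 8 highest.

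Among the genes that fell alike, roX1 came first by size, as given above. CG2211 changed by log2 −1.01 in muscle and −0.78 in whole larvae, and CG44774 by −0.91 in muscle and −0.80 in whole larvae. CG44774 fell to 60.9, 66.6 and 60.8 CPM in NUAK550 muscle, against 125, 103 and 125 CPM in lacZ muscle, and to 55.4, 59.8 and 60.1 CPM in NUAK550 whole larvae, against 107, 92.2 and 106 CPM in lacZ whole larvae. Hrs, which sorts membrane proteins in endosomes, changed by log2 −0.93 in muscle and −0.68 in whole larvae, and Atet, an ABC transporter, by −0.70 and −1.07. The calls of Hrs and Atet were lost without any of 7 and 10 libraries. HIP-R, an Hsc70-interacting protein, CG1943 and CG9304 were the others, and the calls of HIP-R and CG1943 were lost without any of 4 and 8 libraries. Within the lists of tissues and pathways, 4 of 27 basement membrane and integrin genes changed alike and rose (0.968% of all genes), including the integrin gene if (log2 1.23 in muscle and 1.39 in whole larvae) and Vinc, vinculin (log2 0.75 and 0.79).

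**Figure D5:**
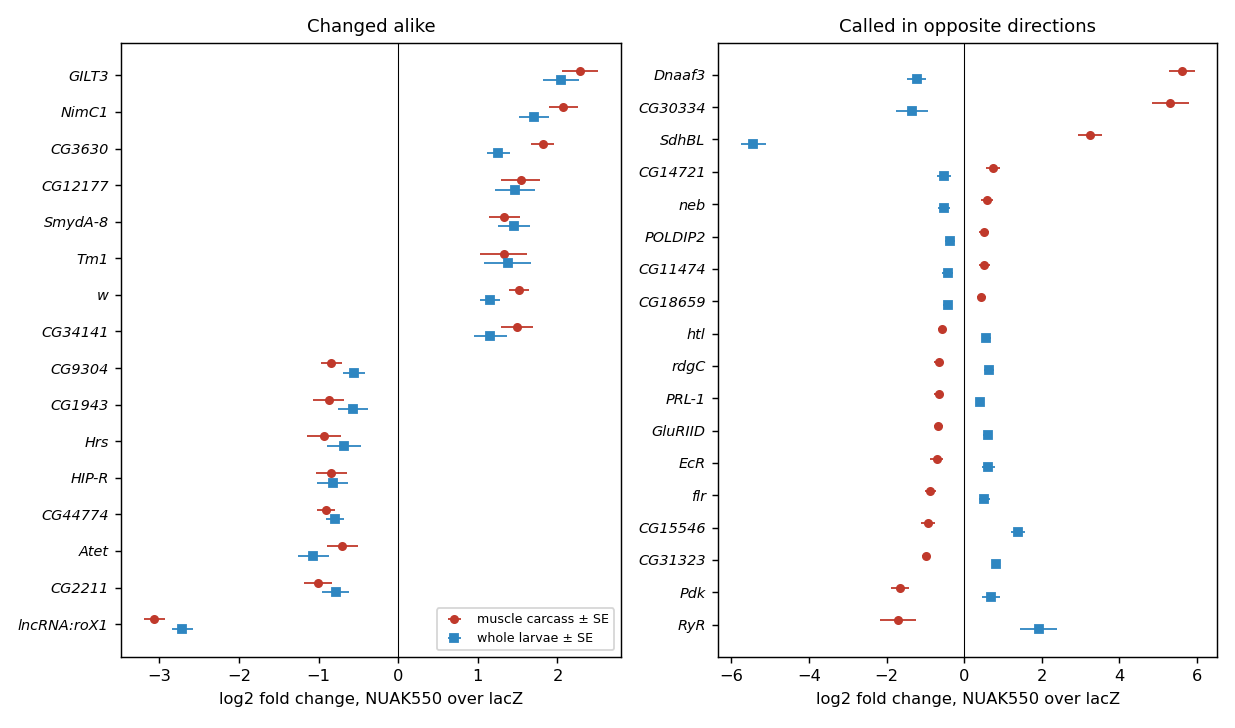
Left, the 16 named genes that changed alike; right, 18 named genes called in opposite directions with a mean of at least 5 CPM. Circles are the log2 fold change of NUAK550 over lacZ in muscle and squares in whole larvae, with bars of 1 SE. On the left the pairs of bars lie close together, from log2 −3.06 and −2.71 for lncRNA:roX1 to 2.28 and 2.04 for GILT3; on the right they lie on opposite sides of 0.

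The list counts below are read against the shares over all genes, 9.21% with a higher effect in muscle and 4.5% with a lower one. In 13 of the 37 lists no member had a called difference by edgeR. Among them were proteasome (32 genes), nucleolar and ribosome biogenesis (32), DNA replication (31), neuron (22), imaginal disc (18), mitochondrial genome (19), Toll and Imd signalling (20) and unfolded protein and stress genes (15). Over all 13 lists, 5 members with a higher and 14 with a lower effect in muscle had an unadjusted p below 0.05. DESeq2 called 4 and 4, beside 1870 higher and 752 lower of all 12194 genes. The gut list, one of the 13, had 45 members and a median of −1.26 with low levels in muscle. The fat body list had 1 lower of 21, Mtp, the lipid transfer protein that loads lipoproteins (log2 −0.79, lost without any of 5 libraries). In the autophagy and lysosome list 2 of 33 members had a higher and 2 a lower effect in muscle, and in the antioxidant and detoxification list 1 of 25 had each. Atg8b, 1 of the 2 higher autophagy members, had 3 counts over NUAK550 muscle and 1 over lacZ muscle, and fell in whole larvae. In the Malpighian tubule (6 genes), insulin and TOR (22), ecdysone response (24) and muscle identity (18) lists 1 member had a lower effect, and in the cuticle list 1 of 32 had a higher one. By chromosome, 12.1% of 1958 X-linked genes differed between the preparations, against 13.3% to 15% on the large autosomal arms and 6.45% of 93 genes on chromosome 4. The median difference on the X was −0.09 and that on the autosomal arms 2L to 3R lay between −0.05 and 0.00036.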

How the data were processed

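RNA of whole larvae and of muscle carcass was sequenced as cDNA, and each library was deposited as raw counts per gene, whole numbers made by the authors. Per the submitters' processing notes, the tools were Trimmomatic 0.36, STAR 2.5.2b, featureCounts of Subread 1.5.2 and DESeq2, with the build BDGP6. For the strand setting and the annotation release, no source used here gives a value. Tables of normalized values by the authors were not used. The 3 files of NUAK550 whole larvae have the numbers 2, 3 and 5 in their headers, and the replicate numbers of the labels were followed.

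Genes are named by identifier. Of 17411 identifiers, 223 were named by position in the reference annotation, and 51 without a symbol held 0.00264% of counts. Coordinates are those of the files. Counted reads per library are given in the report, TMM factors ran from 0.76 to 1.41, and replicates of a group correlated at r = 0.96 to 0.99 across genes. The lowest chi-square per degree of freedom between replicates was 37.2, so no pair agreed within sampling noise.

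The 12 libraries were fitted with edgeR 4.0.16 (quasi-likelihood F test, R 4.3.3) after filterByExpr and TMM scaling, with 4 group means. The 12194 genes that passed entered the contrast (NUAK550 muscle minus lacZ muscle) minus (NUAK550 whole minus lacZ whole) and both simple effects. Genes were called at a Benjamini-Hochberg adjusted p below 0.05 over all genes tested. Standard errors were derived from the F statistic, and intervals are 95%. The fit was tested on simulated counts. DESeq2 1.42.0, limma 3.58.1 (voom), other scalings and filters, all 18 libraries, the replicate number as a block and leaving out each library were alternatives.

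The 37 gene lists, and the genes compared, were chosen with earlier results of these data known. Named genes were the 12 highest and the 12 lowest called differences with a mean of at least 5 CPM, the 8 highest and the 8 lowest that changed alike, the 6 opposite and the 8 of all genes with the smallest p, up to 4 called members of each list, and genes picked from earlier results. Other genes named in the text fall outside this rule and were chosen after their values were seen. A count of 0 in a group was set at a floor of 3 counts over the group, which covers counting error only.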

Additional observations from a re-analysis of the deposited data

Results flagged for a closer look

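The NUAK550 effect differed between muscle and whole larvae by the test of the difference itself for 1672 genes, 1123 with a higher effect in muscle and 549 with a lower one, and 50 of them were called in opposite directions in the preparations. The values below are log2 differences, muscle minus whole larvae, of genes called in opposite directions.

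Of the genes higher in muscle and lower in whole larvae, SdhBL differed by 8.67, Dnaaf3 by 6.83, CG4907 by 7.56, Cep290 by 5.90 and CG30334 by 6.66. For ATPsynbetaL the fitted value was 12, but it rests on 1 count over the lacZ muscle libraries and 5 over the NUAK550 whole larvae libraries, so its size depends on how low counts are fitted. Counts over a group were also low for Cep290 and CG4907, with 12 and 13 in lacZ muscle. At higher levels CG18659 differed by 0.87, POLDIP2 by 0.89, neb by 1.11, CG14721 by 1.27 and CG11474 by 0.94.

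Of the genes lower in muscle and higher in whole larvae, CG31323 differed by −1.81, CG15546 by −2.32, rdgC by −1.30, GluRIID by −1.27, flr by −1.39, htl by −1.14, Pdk by −2.34 and PRL-1 by −1.07.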

How the results depend on the processing

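Of 135 called results for named genes, 59 kept their direction and their call in every alternative that gave a value, and 1 uncalled one changed sign: the difference of mthl8 was log2 −3.68 with all 12 libraries and ran from −4.19 to 0.31 over the fits that left out 1 library. The counts of genes whose effect differed were 1672 (1123 higher in muscle and 549 lower) with edgeR, 2622 (1870 higher) with DESeq2 and 2628 (1873 higher) with limma voom. DESeq2 called 1905 genes in muscle, 244 that changed alike and 80 in opposite directions. Without a filter on low counts 33 genes were called in opposite directions, and with at least 10 counts in each library of a group 275 had a lower effect in muscle. All 18 libraries gave 226 differing genes, 124 higher and 102 lower, and 17 in opposite directions; the cause was not tested. Changed alike held for 61 genes with a bound of 0.58 and 315 with no bound.

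Replicate numbers did not pair the libraries: same-numbered libraries deviated together at r above 0.1 in 2 of 18 pairs (−0.30 to 0.18). With the number as a block 344 genes had a lower effect, 663 were called in muscle, 67 changed alike and 20 were called in opposite directions. Leaving out 1 library gave 1146 to 1723 differing genes, 958 to 1181 higher and 147 to 693 lower, 518 to 1749 called in muscle, 2764 to 3502 in whole larvae, 40 to 313 alike and 15 to 77 in opposite directions. The share of higher genes among the calls was 67.2% in the report's values, 82.6% with at least 10 counts in each library of a group, 54.9% with 18 libraries and 59.8% to 87.2% without 1 library. TMM within each preparation, added after the data were seen, gave 1552 differing genes. The RLE and total-count scalings gave 1581 and 1520.

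Genes with 0 to a few counts in muscle leave the size of a change there uncertain, although a few were called, such as ND-51L1 with 12 counts over the NUAK550 muscle libraries and 0 over those of lacZ.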
